A study of Mus musculus with 36 samples.

Results

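Trp53 and 9 genes known as targets of its product, the transcription factor p53, were followed through 36 libraries of mouse liver RNA. These 10 genes, chosen by symbol among the 24421 genes counted, are Trp53, Cdkn1a, Mdm2, Ccng1, Phlda3, Bax, Bbc3, Eda2r, Gdf15 and Trp53inp1. All mice were male C57BL/6, were obtained at 7 weeks of age and, after 1 week of acclimation, ate the CDAHFD, a high-fat diet without choline whose protein is replaced by amino acids and which causes steatohepatitis, during 12 weeks. In the HFD experiment, the CDAHFD was replaced by another high-fat diet (HFD) for 2 weeks, during which 10 mice received 2 doses of Fc at 4.3 mg/kg and 10 received 2 doses of Fc(mML1)B3 at 5 mg/kg. In the standard diet experiment, the CDAHFD was replaced by standard chow for 10 days, and these doses were given to 9 mice as Fc and to 7 as Fc(mML1)B3 on days 1, 4 and 7. Fc(mML1)B3 is an antibody Fc fragment into which a macrocyclic peptide that binds Met, the receptor of hepatocyte growth factor, was grafted, so that the fragment displays it on both chains and activates Met, and Fc is the same fragment without the peptide. All 4 groups had eaten the CDAHFD first, so every comparison is among mice that had been given this diet.

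p53 accumulates when DNA is damaged or cells are stressed, binds to sites near its target genes and raises their transcription. Its activity is set mainly through the stability and modification of the protein, so that the level of Trp53 RNA alone does not report it. Among the targets, some halt the cell cycle, some favour apoptosis, and some, such as Mdm2, limit p53 itself. In the liver, p53 responds to lipid overload and injury of hepatocytes, and several of its targets also answer to other regulators.

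Each library came from 1 mouse and held 14949035 to 28466853 counted reads. Values per mouse are CPM, the count of a gene divided by the TMM-adjusted size of its library in units of 1000000 reads, and a gene was called at an adjusted p below 0.05. The liver label was checked with 6 hepatocyte markers, whose summed level was 69040 to 141800 CPM over all mice. In the HFD experiment, the Fc libraries belong to 1 run of library numbers and the Fc(mML1)B3 libraries to 2 others, so the run and the protein cannot be told apart there. In the same experiment, the difference between log2 CPM of the clock genes Arntl and Dbp ranged from -7.65 to -5.12 in Fc mice and from -1.91 to 3.12 in Fc(mML1)B3 mice, without overlap, and the 12 clock genes tested were all called. As the groups do not overlap in this difference, it and the protein cannot be told apart under the HFD. Its part in the results below was examined only by fits with this difference as a covariate. Under the HFD these fits cannot separate it from the protein. Exons of Dbp overlap those of Sphk2 on the other strand, and as strand was ignored, reads over the shared stretch cannot be told apart. In whole liver RNA, fewer cells of a type and less RNA per cell cannot be told apart.

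Per length, Bax was the most abundant of the 10 genes, at 36.3 CPM per kb of exonic sequence on average in Fc mice under the HFD, and Eda2r the least, at 0.201 CPM per kb. Eda2r rested on as few as 2 reads in 1 mouse, against at least 341 reads for Trp53, so its values carry more counting error. The exons of the members overlap no other gene of mm10. The plot of the levels by mouse shows the 10 genes over the 4 groups.

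**Figure D1:**
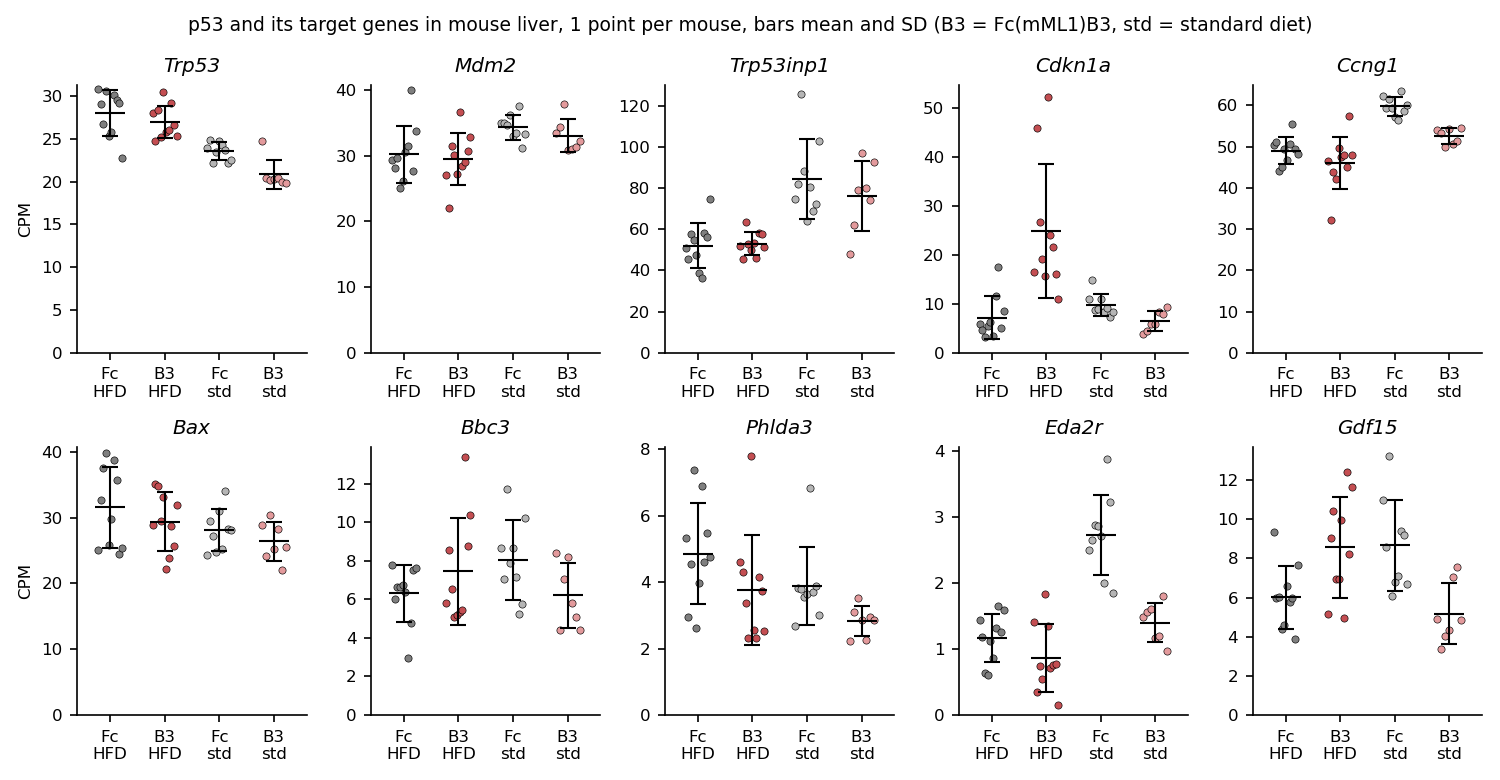
Levels of the 10 genes in CPM (y axis, from 0) in the 4 groups, with Fc(mML1)B3 written B3 and the standard diet std, 1 point per mouse, with the mean and SD of each group. Cdkn1a is highest in Fc(mML1)B3 mice under the HFD, at 10.98 to 52.3 CPM. Eda2r and Ccng1 do not overlap between the proteins under the standard diet, as is also so for 1.06% of 14105 genes in this direction.

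The first question was how Fc(mML1)B3 and Fc mice differed in these genes under the HFD. Of the 10 genes, 2 were called, both higher in Fc(mML1)B3 mice, namely Cdkn1a and Gdf15. Over all 13299 genes tested, 14.8% were called with 8.14% called higher and 6.68% lower. The share among the 10 is near that background. The median log2 fold change of the 10 was -0.03, against -0.01 over all genes.

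Trp53 itself, on chr11:69580359-69591873 of mm10, lay between 22.8 and 30.8 CPM (median 29.2) in Fc mice and between 24.7 and 30.4 CPM (median 26.3) in Fc(mML1)B3 mice. These ranges overlap almost wholly, although 9 of 10 Fc(mML1)B3 mice lay below the Fc median. The difference was -0.04 on the log2 scale (standard error 0.061, adjusted p = 0.687 by edgeR's quasi-likelihood test). Mdm2, which encodes the ubiquitin ligase that marks p53 for degradation, was at 25.1 to 39.9 CPM (median 29.5) in Fc and 21.96 to 36.7 CPM (median 29.5) in Fc(mML1)B3 mice. Its interval of the log2 fold change ran from -0.19 to 0.16. Trp53inp1, a stress-induced partner of p53, had a log2 fold change of 0.04 with an interval from -0.16 to 0.24.

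Cdkn1a encodes p21, the inhibitor of cyclin-dependent kinases through which p53 halts the cell cycle. It lies on the plus strand at chr17:29090986-29100722 of mm10. In Fc mice under the HFD it was at 3.16 CPM at the lowest, 5.72 at the median and 17.5 at the highest. In Fc(mML1)B3 mice the lowest was 10.98, the median 20.4 and the highest 52.3 CPM. All 10 Fc(mML1)B3 mice lay above the median of the Fc mice and 6 lay above every Fc mouse. The overlap came from Fc mice 7 and 8, at 11.5 and 17.5 CPM, while the other 8 Fc mice were at 8.60 CPM or less. Fc(mML1)B3 mice 2 and 6 stood highest, at 45.9 and 52.3 CPM. The rise was 3.54-fold, or 1.82 on the log2 scale (standard error 0.306, adjusted p = 0.000264 by edgeR's quasi-likelihood test, permutation test of the mean log2 CPM with 100000 resamples, two-sided p = 8e-05). It was 1.97 with the 4 Fc(mML1)B3 libraries of 1 run and 1.72 with the 6 of the other, both called, and 2.23 with Fc mice 7 and 8 both left out, an alternative chosen after seeing the data. With the clock difference as a covariate it was 1.33 with a standard error of 0.85 (adjusted p = 0.663 by edgeR), and in that fit 0 of all genes were called, with 1058 at an unadjusted p below 0.05. Of the 10 genes, 2 were among these 1058, Mdm2 at -0.64 (standard error 0.223, adjusted p = 0.609 by edgeR) and Ccng1 at -0.45 (standard error 0.206, adjusted p = 0.612), against -0.02 and -0.08 without the covariate.

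RefSeq lists 2 starts of Cdkn1a on GRCm38.p6, the assembly of mm10, 2790 bases apart. The 250 bases before each are printed because they are the sequences where a promoter-proximal p53 site of the most changed member would lie. Capitals mark p53 half-sites, the 10-base element that p53 binds as a pair, which reads the same on both strands.
Cdkn1a upstream start, chr17:29090729-29090978, plus strand: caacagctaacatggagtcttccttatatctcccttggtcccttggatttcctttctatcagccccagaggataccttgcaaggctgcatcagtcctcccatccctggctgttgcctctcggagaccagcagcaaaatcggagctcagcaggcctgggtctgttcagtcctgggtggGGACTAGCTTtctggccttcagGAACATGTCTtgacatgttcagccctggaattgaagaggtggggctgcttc
Cdkn1a downstream start, chr17:29093519-29093768, plus strand: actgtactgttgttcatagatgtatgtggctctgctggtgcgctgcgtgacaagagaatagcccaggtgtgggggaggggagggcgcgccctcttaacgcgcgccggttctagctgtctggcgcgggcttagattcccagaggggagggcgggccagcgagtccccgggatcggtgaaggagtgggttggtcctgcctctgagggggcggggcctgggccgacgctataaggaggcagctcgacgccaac

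The upstream window held half-sites 73 and 51 bases before the start, and the downstream window held none. Only exact matches are in capitals. The stretch that directly follows the site at 51 bases differs from the element at 1 base and stays in lower case. Of all 32851 promoter windows of this length in the table, 7.13% held at least 1 half-site and 0.0639% held a pair separated by at most 13 bases, as the upstream Cdkn1a window did. The counts per gene do not tell from which start the Cdkn1a reads came. Of the other members, Mdm2, Ccng1, Bax and Trp53 each had 1 half-site in their windows, shown here with 10 bases on either side for comparison with those of Cdkn1a.
Mdm2, chr10:117710925-117710954, minus strand: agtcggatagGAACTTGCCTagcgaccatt
Ccng1, chr11:40755452-40755481, minus strand: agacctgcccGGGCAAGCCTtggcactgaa
Bax, chr7:45467080-45467109, minus strand: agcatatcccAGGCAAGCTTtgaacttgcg
Trp53, chr11:69580274-69580303, plus strand: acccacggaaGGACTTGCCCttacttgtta

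These sites begin 186, 185, 201 and 75 bases before the start of Mdm2, Ccng1, Bax and Trp53. The windows of Phlda3, Bbc3, Eda2r and Gdf15 held none of these letters, which says nothing of sites elsewhere, and Trp53inp1 was not matched. A match is a description of the sequence, and binding of p53 was not measured in these livers.

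Ccng1, the gene of cyclin G1, which takes part in feedback on Mdm2, was at 44.0 to 55.4 CPM (median 49.4) in Fc and 32.2 to 57.5 CPM (median 46.9) in Fc(mML1)B3 mice under the HFD. The groups overlapped, and the log2 fold change of -0.08 (standard error 0.072) was not called. None of the 4 genes of apoptosis was called either. Bax, whose product opens the outer mitochondrial membrane, had a log2 fold change of -0.09 with an interval from -0.32 to 0.14.

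Bbc3 encodes PUMA, a protein that frees Bax from its inhibitors. Its mean was higher in Fc(mML1)B3 mice (7.46 ± 2.78 CPM, SD, n = 10) than in Fc mice (6.31 ± 1.48 CPM, SD, n = 10), but its median was lower, at 6.19 against 6.64 CPM. Above all Fc mice lay 4 Fc(mML1)B3 mice, and 6 lay below the Fc median, and the log2 fold change of 0.25 was not called (adjusted p = 0.370 by edgeR). Phlda3, whose product restrains Akt, was at 2.62 to 7.38 CPM in Fc and 2.31 to 7.79 CPM in Fc(mML1)B3 mice. The difference was -0.35 on the log2 scale (standard error 0.216, adjusted p = 0.289 by edgeR), with 9 of 10 Fc(mML1)B3 mice below the Fc median. Eda2r, a receptor of the tumour necrosis factor family, was at 0.608 to 1.65 CPM in Fc and 0.148 to 1.84 CPM in Fc(mML1)B3 mice, with a log2 fold change of -0.42 that was not called (standard error 0.300, adjusted p = 0.365).

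Gdf15 encodes a secreted stress hormone of the TGF-β superfamily, which is induced by p53 and by the integrated stress response. Fc mice under the HFD had 3.89 CPM at the lowest, 5.96 at the median and 9.35 at the highest, and Fc(mML1)B3 mice had 4.93, 8.61 and 12.4 CPM. The groups overlapped, although 8 of 10 Fc(mML1)B3 mice lay above the Fc median and 4 above all Fc mice. Gdf15 was 1.44-fold higher, or 0.53 on the log2 scale (standard error 0.176, adjusted p = 0.0465 by edgeR's quasi-likelihood test, permutation test p = 0.0199). The call did not hold in 14 of the 20 fits that left out 1 library, those without Fc mouse 2, 3, 4, 5, 6, 7, 8 or 9 or without Fc(mML1)B3 mouse 2, 3, 6, 8, 9 or 10, in which the adjusted p reached 0.0862. Over the 20 fits the log2 fold change was 0.46 to 0.62. With the clock covariate it was -0.33 (standard error 0.520, adjusted p = 0.869 by edgeR).

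**Figure D2:**
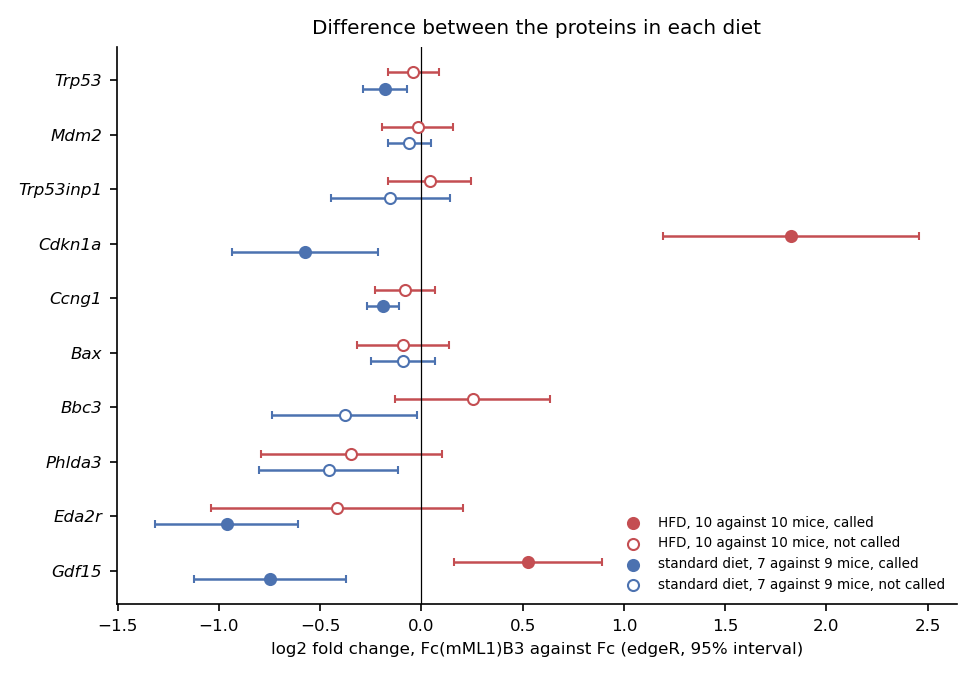
Log2 fold change of each gene between Fc(mML1)B3 and Fc mice (x axis), with 95% intervals from edgeR, under the HFD (red) and the standard diet (blue). Filled points had an adjusted p below 0.05. Cdkn1a and Gdf15 lie above 0 in red and below 0 in blue.

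In the standard diet experiment, all 10 genes had a lower estimate in Fc(mML1)B3 mice than in Fc mice, and 5 were called, all lower. Over the 13570 genes tested, 16.1% were called, 8.56% higher and 7.55% lower. The share among the 10 is above that background, and their median log2 fold change was -0.28, against -0.01 over all genes. The called genes were Eda2r, Gdf15, Ccng1, Trp53 and Cdkn1a.

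Trp53 was at 22.2 CPM at the lowest, 23.7 at the median and 24.9 at the highest in Fc mice, against 19.9, 20.3 and 24.7 CPM in Fc(mML1)B3 mice. Among the 7 Fc(mML1)B3 mice, 6 were below every Fc mouse, and mouse 1, at 24.7 CPM, lay within their range. On the log2 scale the difference was -0.18 (standard error 0.052, adjusted p = 0.0209 by edgeR, exact permutation test p = 0.00288). The call did not hold within the run of library numbers that holds both proteins, Fc mice 6 to 9 against the 7 Fc(mML1)B3 mice (-0.16, adjusted p = 0.176 by edgeR), or with the replicate block (-0.20, adjusted p = 0.0510). Mdm2 was at 31.1 to 37.5 CPM in Fc and 30.9 to 37.8 CPM in Fc(mML1)B3 mice, with a log2 fold change of -0.06 and an interval from -0.16 to 0.04. Trp53inp1 varied widely among mice, from 63.9 to 125.9 CPM in Fc and from 48.0 to 96.9 CPM in Fc(mML1)B3 mice, and its log2 fold change of -0.15 was not called.

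Cdkn1a was at 7.25 CPM at the lowest, 8.99 at the median and 14.9 at the highest in Fc mice, and at 3.93, 5.86 and 9.42 CPM in Fc(mML1)B3 mice. Among the 7 Fc(mML1)B3 mice, 4 were below every Fc mouse and 6 below their median, and the groups overlapped. The log2 difference was -0.58 (standard error 0.174, adjusted p = 0.0285 by edgeR, exact permutation test p = 0.00638). The call did not hold without Fc mouse 2, the highest of its group (-0.48, adjusted p = 0.0515 by edgeR), or without Fc(mML1)B3 mouse 1, 2, 3 or 4, in which the adjusted p reached 0.0590. Within the run of both proteins it was -0.34 (adjusted p = 0.339). The clock difference of Arntl and Dbp was -5.33 to -2.48 in Fc and -6.69 to -4.02 in Fc(mML1)B3 mice of this diet, where 10 of 13 clock genes were called, 6 higher and 4 lower. With the clock difference as a covariate Cdkn1a was at -0.24 (adjusted p = 0.341).

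Ccng1 separated the groups. Fc mice were at 56.4 to 63.5 CPM (median 59.4) and Fc(mML1)B3 mice at 49.9 to 54.5 CPM (median 53.3). Every Fc(mML1)B3 mouse was below every Fc mouse, which 1.06% of the 14105 genes kept over the 4 groups also showed. The fall was small, of -0.19 on the log2 scale (standard error 0.037, adjusted p = 0.00167 by edgeR). The exact permutation test gave p = 8.74e-05, the smallest that 7 mice against 9 allow, and the log2 fold change within the run of both proteins was -0.18, also called.

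Eda2r fell most among the 10 genes. Fc mice had 1.85 CPM at the lowest, 2.72 at the median and 3.88 at the highest, and Fc(mML1)B3 mice had 0.967, 1.49 and 1.81 CPM. The groups did not overlap, as was also so for 1.06% of the 14105 genes in this direction. There were 45 to 93 reads per Fc library and 24 to 44 reads per Fc(mML1)B3 library. The level in Fc(mML1)B3 mice was 0.513 of that in Fc mice, or -0.96 on the log2 scale (standard error 0.170, adjusted p = 0.000602 by edgeR, exact permutation test p = 0.000175). It was -0.97 within the run of both proteins, also called. Of the other genes of apoptosis, Phlda3 was below the Fc median in all 7 Fc(mML1)B3 mice, with a log2 fold change of -0.46 that missed the threshold (adjusted p = 0.0620 by edgeR). With DESeq2 Phlda3 passed it at -0.46 (adjusted p = 0.0388), which made 6 members called. Without Fc mouse 1 or without Fc(mML1)B3 mouse 3, Phlda3 passed it at -0.52 (adjusted p = 0.0368 and 0.0467 by edgeR). Bbc3 had a log2 fold change of -0.38 (adjusted p = 0.146) and Bax one of -0.09 with an interval from -0.25 to 0.07.

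Gdf15 was at 6.07 CPM at the lowest, 8.57 at the median and 13.2 at the highest in Fc mice under the standard diet, and at 3.40, 4.87 and 7.56 CPM in Fc(mML1)B3 mice. The 7 Fc(mML1)B3 mice were all below the Fc median and 5 below every Fc mouse. The log2 difference was -0.75 (standard error 0.180, adjusted p = 0.00731 by edgeR, exact permutation test p = 0.00236). Within the run of both proteins it was -0.65 (adjusted p = 0.0610), and with the clock covariate it was -0.46 (adjusted p = 0.120).

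Cell type markers moved with some of these falls, and their part in them was not tested. Of the 6 stellate cell markers, all had a lower estimate and 2 were called lower with the standard diet, where 7.55% of all genes were, with a summed level of 171.4 to 259.4 CPM in Fc and 169.1 to 199.7 CPM in Fc(mML1)B3 mice. Of the 6 cholangiocyte markers, all had a lower estimate and 1 was called. Their sums were 228.1 to 500.2 CPM (median 321.9) in Fc mice. In Fc(mML1)B3 mice the sums were 178.5 to 411.5 CPM, with a higher median of 347.3. None of the 6 hepatocyte, macrophage, lymphocyte or endothelial markers and none of the 4 neutrophil markers tested was called there by edgeR, and 1 macrophage and 1 lymphocyte marker had an unadjusted p below 0.05. Under the HFD, 3 of the 4 neutrophil markers tested and 1 of the 6 lymphocyte markers were called lower, where 6.68% of all genes were, 1 of the 6 hepatocyte markers was called higher, where 8.14% were, and no stellate, cholangiocyte, macrophage or endothelial marker was called, where 1, 1, 3 and 1 had an unadjusted p below 0.05. The summed neutrophil markers under the HFD were 13.3 to 67.9 CPM in Fc and 11.3 to 20.5 CPM in Fc(mML1)B3 mice. At least 1 read of every marker counted was present in some mouse of each group.

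A difference between the experiments in how Fc(mML1)B3 and Fc mice differed was tested with an interaction term over the 36 libraries, coded as the effect under the standard diet minus that under the HFD. It was called for 2 of the 10 genes, Cdkn1a and Gdf15, where 9.06% of 14105 genes were called and 4.40% were called with this sign. For Cdkn1a it was -2.38 on the log2 scale (standard error 0.397, adjusted p = 6.29e-05 by edgeR), the gene being higher in Fc(mML1)B3 mice of the first experiment and lower in those of the second. For Gdf15 it was -1.26 (standard error 0.265, adjusted p = 0.00123 by edgeR). Both calls held in all 36 fits that left out 1 library, from -2.64 to -2.20 for Cdkn1a and from -1.39 to -1.16 for Gdf15. With the clock difference as a covariate, a fit added after seeing the data, neither was called, at -1.31 for Cdkn1a (standard error 0.757, adjusted p = 0.735 by edgeR) and at 0.07 for Gdf15 (standard error 0.512, adjusted p = 0.988), and 0 of all genes were called, with 1045 at an unadjusted p below 0.05. Without the covariate, the interaction was called for all 13 clock genes. Bbc3, with estimates of opposite sign as well, had an interaction of -0.61 that was not called (adjusted p = 0.166 by edgeR). For Eda2r, called under the standard diet alone, the interaction was -0.53 with an interval from -1.26 to 0.20, so a difference between the experiments was not shown. With limits of 0.1 on the adjusted p and 2 on the fold, which the study names for both diets, both interactions were also called (1.92% of all genes). These limits called Cdkn1a under the HFD (1.34% of all genes) and no member for the standard diet (0.604% of all genes), for which the study also names limits of 0.05 and 1.5, which called Eda2r and Gdf15 (2.36% of all genes). Diet goes with the length of treatment, the number of doses and the library run, and these cannot be told apart.

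**Figure D3:**
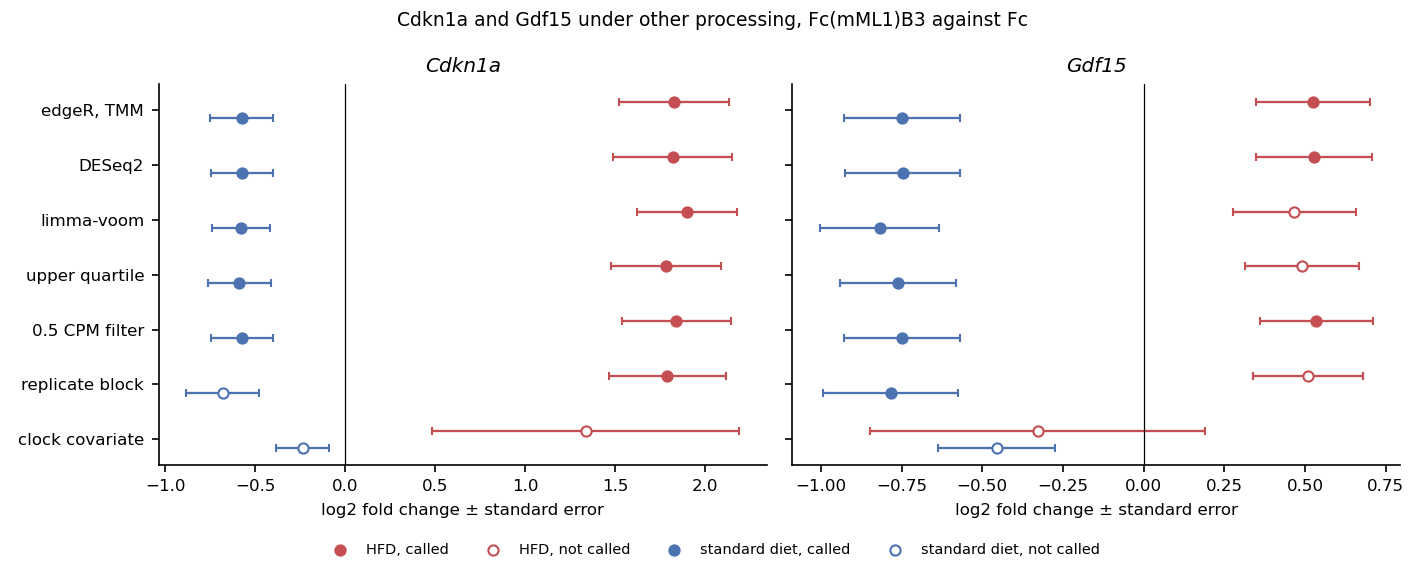
Log2 fold change of Cdkn1a and Gdf15 between Fc(mML1)B3 and Fc mice (x axis, ± standard error) under the HFD (red) and the standard diet (blue) for 7 ways of processing (y axis). Filled points had an adjusted p below 0.05. Cdkn1a stays between 1.78 and 1.90 under the HFD except with the clock covariate, where it is 1.33.

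The levels in the 2 experiments also differed with the protein held fixed. In Fc mice, 6 of the 10 genes were called between the diets, where 47.9% of all 14105 genes were, and in Fc(mML1)B3 mice 6 were called, where 38.5% were. These comparisons use the same libraries as those above. With an adjusted p below 0.1 and a fold above 2, limits stated for the comparisons of the proteins, Eda2r alone was called in Fc mice (4.98% of all genes) and Cdkn1a alone in Fc(mML1)B3 mice (4.00% of all genes). Trp53inp1 was higher under the standard diet, at 84.5 ± 19.4 CPM (SD, n = 9) against 52.1 ± 10.97 CPM (SD, n = 10) in Fc mice, a log2 fold change of 0.70 (adjusted p = 1.4e-05 by edgeR), and it was 0.52 higher in Fc(mML1)B3 mice. Eda2r was 2.34-fold higher under the standard diet in Fc mice, a log2 fold change of 1.22, and the 9 Fc mice of that diet, at 1.85 CPM or more, did not overlap the 10 of the HFD, at 1.65 CPM or less, as was also so for 7.47% of all 14105 genes in this direction.

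Ccng1 was also higher under the standard diet, by 0.29 in Fc mice and 0.19 in Fc(mML1)B3 mice on the log2 scale. Trp53 was lower, with log2 fold changes of -0.25 and -0.37. Cdkn1a did not pass the threshold in Fc mice (0.45, adjusted p = 0.166 by edgeR), although it did without Fc mouse 8 of the HFD (0.69, adjusted p = 0.0222), and in Fc(mML1)B3 mice its log2 fold change was -1.93 (adjusted p = 2.58e-06 by edgeR). Gdf15 had 0.53 in Fc mice and -0.73 in Fc(mML1)B3 mice, both called. Mdm2, higher by 0.19 in Fc mice, lost its call without Fc mouse 2 or 5 of the HFD or 4 or 7 of the standard diet (0.17 to 0.18, adjusted p up to 0.0644). Eda2r in Fc(mML1)B3 mice, at 0.69, lost it without HFD mouse 2, 3, 4, 7, 8 or 10 or standard diet mouse 1, 2, 3 or 6, where it was 0.58 to 0.68.

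The calls between the diets also moved with the processing. With upper-quartile normalization, 3 were lost, those of Mdm2 in Fc mice (0.10, adjusted p = 0.224 by edgeR) and of Ccng1 (0.11, adjusted p = 0.176) and Eda2r (0.60, adjusted p = 0.0670) in Fc(mML1)B3 mice, and Bax was called lower in Fc mice (-0.25, adjusted p = 0.0364). In Fc mice, limma-voom called Cdkn1a (0.68, adjusted p = 0.0313) and the replicate block Bbc3 (0.40, adjusted p = 0.0471 by edgeR). With the clock covariate, added after seeing the data, Mdm2 (0.07) and Gdf15 (0.18) were not called in Fc mice, and in Fc(mML1)B3 mice Cdkn1a (-1.14, adjusted p = 0.164 by edgeR), Gdf15 (0.24) and Eda2r (-0.0020) were not, whereas Mdm2 was (0.51, adjusted p = 0.0293). With only Fc mice 6 to 9 of the standard diet, Mdm2 (0.18, adjusted p = 0.155 by edgeR) and Gdf15 (0.45, adjusted p = 0.124) lost their calls in Fc mice and Eda2r (0.70, adjusted p = 0.0546) in Fc(mML1)B3 mice, whose own libraries were the same. With the 6 HFD Fc(mML1)B3 libraries of 1 run, Ccng1 (0.10, adjusted p = 0.136) and Eda2r (0.60, adjusted p = 0.108) lost theirs, and with the 4 of the other Mdm2 was called (0.25, adjusted p = 0.0397).

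Among mice of the same group, no pair of the 10 genes passed the test for varying together. Over the 36 mice, with each gene taken as the deviation of log2 CPM from its group mean, the 45 pairs had a median Pearson r of -0.01 and a range from -0.37 to 0.52. Of these pairs, 4 had an unadjusted permutation p below 0.05 and 0 had an adjusted one, the smallest adjusted p being 0.410. The highest was that of Mdm2 and Ccng1 (r = 0.52, permutation p = 0.0130, Spearman's rho 0.26 with permutation p = 0.156), which fell to 0.17 without the 2 mice farthest from the median of Mdm2, so it rests on those mice. Within the HFD, Trp53 and Phlda3 had r = 0.57 (permutation p = 0.00912, adjusted p = 0.370) and rho = 0.57 (permutation p = 0.0116), with r = 0.65 without the 2 farthest mice. Within the standard diet, Trp53 and Trp53inp1 had r = -0.71 (permutation p = 0.00558, adjusted p = 0.251) and rho = -0.62 (permutation p = 0.0114), with r = -0.61 without the 2 farthest mice.

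**Figure D4:**
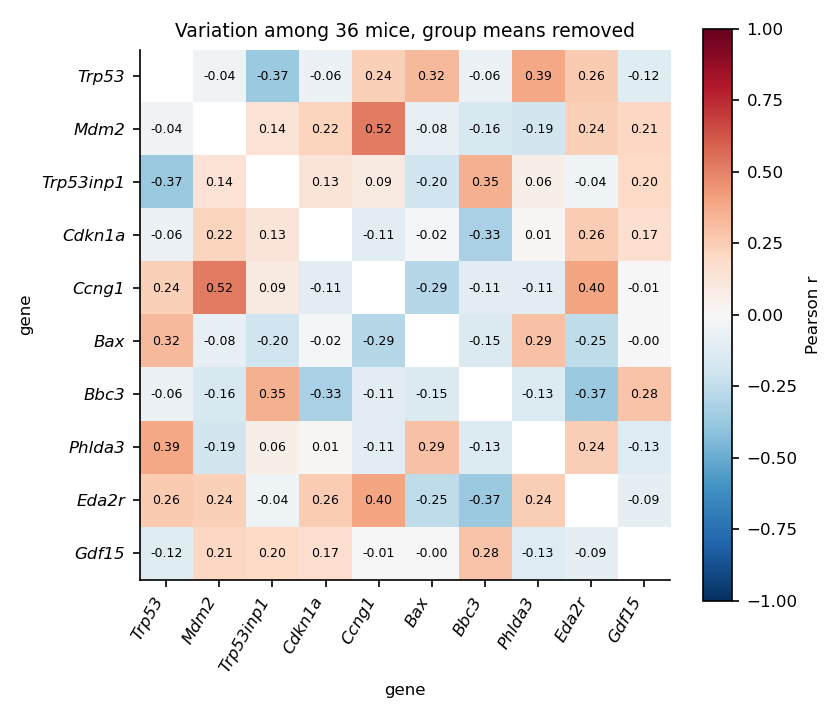
Pearson r between each pair of the 10 genes (both axes) over the 36 mice, after removal of the group means. Values run from -0.37 to 0.52, and none had an adjusted permutation p below 0.05.

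The genes whose variation among mice was most like that of Cdkn1a were Scamp2 (r = 0.70), Baiap2l1 (0.67), Acer2 (0.66), 1700017B05Rik (0.66) and Dusp1 (0.66), over the same 36 deviations. These were the highest of all 14105 genes kept and are given as a description. Acer2 had r = 0.81 among HFD mice and 0.10 among standard diet mice, whereas Scamp2 had 0.76 and 0.62. Among the clock genes, r with Cdkn1a ran from -0.20 for Nr1d1 to 0.52 for Per1.

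Of 44 further p53 targets, 39 were tested under the HFD, where 4 were called higher and 3 lower, with a median log2 fold change of -0.06. These 7 of 39 are near the 14.8% of all genes called. Fas, a death receptor, rose by 0.49, Ei24 by 0.31 and Epha2, a receptor tyrosine kinase, by 0.71. Tap1, a peptide transporter of antigen presentation, fell by 0.59, Gadd45a, a stress sensor of DNA damage, fell by 0.90 and Abhd4 fell by 0.26. Gadd45a overlaps E230016M11Rik in at most 238 of its 1224 exonic bases. As strand was ignored, reads over that stretch cannot be told apart. Over 9 alternatives, among them the clock covariate, with which 0 of all genes were called, the calls under the HFD held in 8 for Gadd45a (-0.93 to -0.84) and Tap1 (-0.63 to -0.28), in 7 for Fas and Abhd4 and in 6 for Ei24 and Epha2, the latter also missing the threshold with either run of Fc(mML1)B3 libraries. Cdkn1a and Gadd45a, both known as p53 targets that restrain the cell cycle, were called in opposite directions.

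In the standard diet experiment 40 of the 44 were tested, and 4 were called higher and 3 lower, with a median of -0.05, so that 7 of 40 are near the 16.1% of all genes called. Tigar, an enzyme that lowers glycolytic flux, rose by 0.54, Dcxr by 0.30 and Fdxr, a mitochondrial reductase, by 0.27. Steap3, a ferrireductase, fell by 0.40, Sesn1, a sestrin that restrains mTORC1, fell by 0.31 and Tnfrsf10b, a death receptor, fell by 0.69. Of 21 regulators of p53 tested, 0 were called under the HFD by edgeR (4 at an unadjusted p below 0.05), where 14.8% of all genes were, and under the standard diet 2 were called lower, Mdm4, an inhibitor of p53 (-0.15), and Trp53bp1 (-0.28), which overlaps Tubgcp4. These 2 of 21 are below the 16.1% of all genes called. Over 7 alternatives the call held in 5 for Mdm4 (-0.19 to -0.14, adjusted p up to 0.136) and in 4 for Trp53bp1 (-0.29 to -0.09, up to 0.569). It held in 4 for Tnfrsf10b (up to 0.127) and in 5 for Fdxr (up to 0.0892).

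Of 12 members of the Bcl2 family other than Bax and Bbc3, 4 were called lower under the HFD and none higher, and 11 of the 12 had a lower estimate, where 6.68% of all genes were called lower. Mcl1, which protects from apoptosis, fell by 0.25, while Bcl2l11 and Bmf, which favour it, fell by 0.49 and 0.75. Over the 9 alternatives the call held in 7 for Mcl1 and in 6 for Bcl2l11 and Bmf, both of which missed the threshold with either run of Fc(mML1)B3 libraries. For the standard diet 2 were called higher, Bid (0.28) and Bak1 (0.19), and 2 lower, Bok (-0.69) and Bcl2l1 (-0.24), where 8.56% and 7.55% of all genes were, and the call of Bak1 held in 4 of 7 alternatives (adjusted p up to 0.205). Of 4 other inhibitors of cyclin-dependent kinases tested, Cdkn2c was called lower under the HFD (-0.46) and Cdkn1b was called lower (-0.21) with the standard diet, 1 gene in each case, beside the same shares. The call of Cdkn2c held in 7 of 9 alternatives and that of Cdkn1b in 6 of 7.

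Of 20 genes of proliferation, 0 were called by edgeR under the HFD, where 14.8% of all genes were, and 2 had an unadjusted p below 0.05. With the standard diet, 4 of 20 were called, near the 16.1% of all genes, as Rrm2 was higher (0.46) and Cdc20, Plk1 and Mki67 lower (-0.82, -0.71 and -0.43), and Cdc20 overlaps Elovl1. Over 7 alternatives these calls held in 4 for Rrm2 (0.37 to 0.61, adjusted p up to 0.121), 6 for Cdc20 (-0.91 to -0.62, up to 0.0986), 4 for Plk1 (-0.72 to -0.54, up to 0.224) and 3 for Mki67 (-0.52 to -0.20, up to 0.513). A list of 12 genes held Atf4 and genes driven by its product, the stress factor ATF4, which also acts on Gdf15. Of the 12, Atf4 was called higher (0.31) and Trib3 lower (-1.24) under the HFD. The other 10 were not called, and the share called is near the 14.8% of all genes. Both calls held in 7 of 9 alternatives. For the standard diet Trib3 was called lower (-1.41) and 11 were not called, a share below the 16.1% of all genes. The interaction was called for 1 of the 12, near the 9.06% of 14105 genes called. This was Ddit3 (-0.82, adjusted p = 0.0440 by edgeR), which overlaps Mars. The interaction of Trib3 was not called (-0.16, adjusted p = 0.846 by edgeR).

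**Figure D5:**
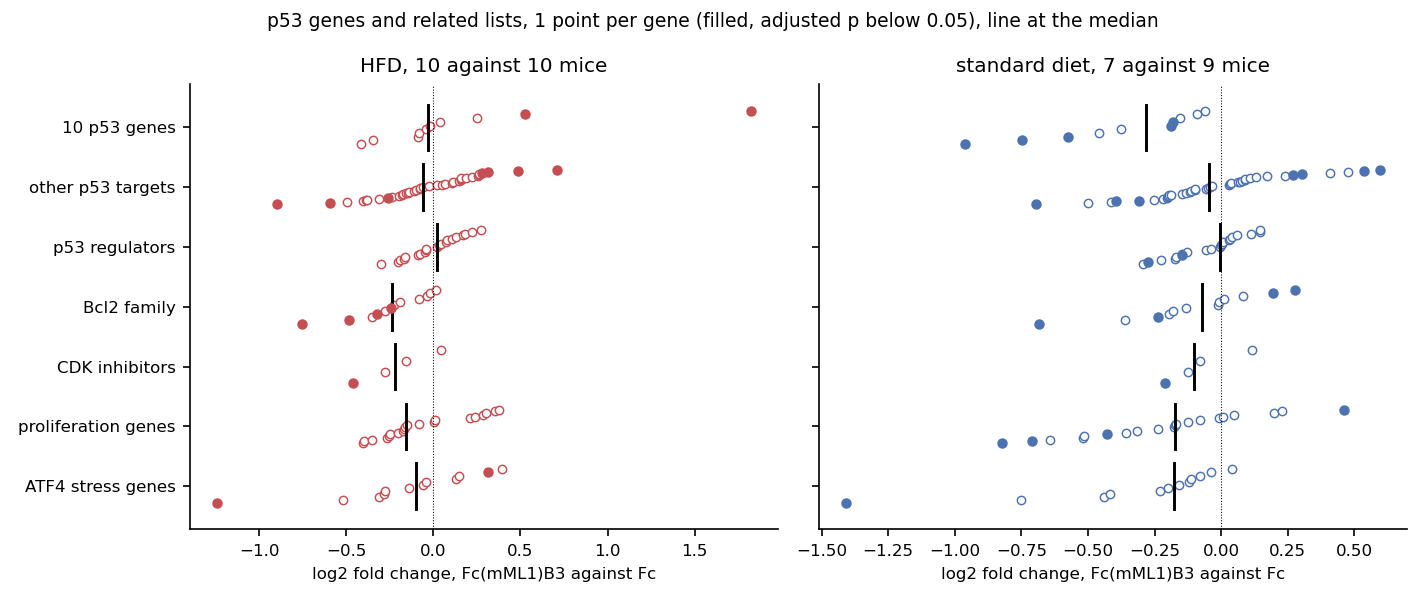
Log2 fold change between Fc(mML1)B3 and Fc mice (x axis) for the 10 genes and 6 related lists (y axis), 1 point per gene tested, filled where the adjusted p was below 0.05, with a line at the median of each list. Under the standard diet the 10 genes all lie below 0, with a median of -0.28, while the other p53 targets lie on both sides, with a median of -0.05.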

How the data were processed

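Liver RNA of 36 mice was analysed from the counts per gene that the authors deposited. The authors trimmed reads with fastp, removed ribosomal RNA with Bowtie2 2.4.5, aligned the rest to mm10 with STAR 2.7.10a and counted with featureCounts of Subread 2.0.3. Each end of a pair was counted as a read and strand was ignored. Totals of 14949035 to 28466853 reads leave a gene near 1 CPM with few reads per library.

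From the counts, each diet was fitted alone, and the interaction and the diet contrasts over all 4 groups, with edgeR 4.0.16 in R 4.3.3 (TMM, filterByExpr, quasi-likelihood F-test, Benjamini-Hochberg adjustment over all genes tested, called at 0.05 with no limit on the fold). Mean log2 CPM (prior count 0.5) was compared by two-sided permutation tests. Replicates are separate mice. The 147 pairs of libraries within groups differed beyond sampling noise. The tests were checked on simulated data.

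All 10 members are named, with the called genes of smallest p of each other list, at most 3 in each direction and diet, Arntl and Dbp, and the 5 genes most like Cdkn1a. The members and lists were chosen with earlier results of these data known. Sex-linked checks and the authors' own comparisons were not used. Promoters are from RefSeq on GRCm38.p6 and matched 9 of the 10 members by symbol. Alternatives were DESeq2 1.42.0, limma-voom (limma 3.58.1), upper-quartile normalization, a filter at 0.5 CPM, the fold limits of the study, a replicate block, a clock covariate, library runs, and each library left out. For the interaction and the diet contrasts, the clock and run fits were added after seeing the data.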

Additional observations from a re-analysis of the deposited data

Results flagged for a closer look

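Of 40 combinations of gene and group, 4 had 1 mouse far from the others by Dixon's test at the 95% level, and chance flags about 1 in 20. Trp53 was at 24.7 CPM in Fc(mML1)B3 mouse 1 of the standard diet, where the next highest was at 20.4 CPM. Cdkn1a was at 14.9 CPM in Fc mouse 2 of the standard diet, against 11.1 CPM in the next. Phlda3 was at 7.79 CPM in Fc(mML1)B3 mouse 5 of the HFD, against 4.60 CPM in the next, and at 6.82 CPM in Fc mouse 6 of the standard diet, against 3.87 CPM in the next.

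The interaction of protein and diet was called for Cdkn1a (-2.38 on the log2 scale, adjusted p = 6.29e-05 by edgeR) and for Gdf15 (-1.26, adjusted p = 0.00123 by edgeR). With the difference of the clock genes Arntl and Dbp as a covariate, neither was called, at -1.31 (adjusted p = 0.735 by edgeR) and 0.07 (adjusted p = 0.988 by edgeR).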

How the results depend on the processing

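Under the HFD, 2 members were called, and 1, Cdkn1a, remained with limma-voom, upper-quartile normalization, the replicate block, limits of 0.1 on the adjusted p and 2 on the fold, either run of Fc(mML1)B3 libraries and without Fc mice 7 and 8. With the clock covariate 0 were called, as were 0 of all genes (2, Mdm2 and Ccng1, and 1058 at an unadjusted p below 0.05). Of the named genes called without it, Gdf15 (-0.33), Fas (-0.11), Epha2 (-0.23), Cdkn2c (0.32) and Atf4 (-0.27) changed sign. The members Trp53, Phlda3, Bax, Bbc3, Eda2r and Trp53inp1, called in neither fit, changed sign too. Under the standard diet, 5 were called, 6 with DESeq2 (Phlda3, adjusted p = 0.0388), and 3 with the replicate block (Trp53, adjusted p = 0.0510, and Cdkn1a, adjusted p = 0.0558 by edgeR, were lost), 2 with limits of 0.05 and 1.5, 0 with limits of 0.1 and 2, 3 with the clock covariate and 2 within the run of both proteins. The 2 calls of the interaction remained with DESeq2, limma-voom, upper-quartile normalization, the 0.5 CPM filter, the block, limits of 0.1 and 2, and, added after seeing the data, either HFD run of Fc(mML1)B3 libraries (1 of which also called Ccng1, -0.20) and Fc mice 6 to 9 alone of the standard diet. With the clock covariate, also added, 0 were called by edgeR (0 members and 1045 genes at an unadjusted p below 0.05). The estimate of Gdf15 changed sign, to 0.065 with a standard error of 0.512. In Fc(mML1)B3 mice that covariate put the diet contrast of Gdf15 at 0.24 (standard error 0.375) and that of Eda2r at -0.0020 (standard error 0.587), neither called. Each diet contrast fell from 6 calls to 1 with limits of 0.1 and 2, and the other alternatives gave 4 to 7 calls, not always of the same members. Leaving out each library gave 1 to 2 calls under the HFD, 4 to 6 under the standard diet, 2 in the interaction and 5 to 7 in each diet contrast.

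Same-numbered mice do not pair, since 1 of 10 pairs under the HFD and 0 of 7 under the standard diet had correlated deviations above 0.1. Over all genes under the HFD, 1972 calls became 3039 with limma-voom, 1294 with the block and 705 with the 4 libraries of 1 run. Under the standard diet, 2186 became 1296 with the block and 942 within the run of both proteins. Of 30 values named from the other lists, 6 were called in every alternative, 8 when the clock covariate is set aside, and 23 in every fit without 1 library. The lowest count of any member was that of Eda2r, 2 reads in 1 mouse.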
